A study of Arabidopsis thaliana with 6 samples.

Results

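Phosphate-starved roots of the Arabidopsis thaliana mutant phl2 were compared with roots of wild-type plants supplied with phosphate. The comparison uses 4 of the 6 deposited columns and covers the 11463 of 33602 genes with 1 RPKM or more (reads scaled to gene length and library total) in 2 or more columns. All plants were seedlings of ecotype Col-0 aged 8 days, and RNA came from whole roots. The fed wild type (Col-0 P+, replicates 1 and 2) grew on medium with sufficient phosphate. The mutant (phl2 P-, replicates 5 and 6) grew on deficient medium. Starved wild type (Col-0 P-, replicates 3 and 4) is given for context and shares the fed controls. The labels name no phl2 allele. Genotype and phosphate supply differ together in this contrast and cannot be told apart within it, since fed phl2 roots were not analysed here. Nothing in the labels ties replicates to separate plants or cultures, so the spread behind the p-values may be technical.

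Plants short of phosphate switch on genes that take up phosphate, release it from organic sources, spare it in membranes and metabolism, and remodel the root. MYB-type transcription factors of the PHR family, to which PHL2 belongs, activate many of these genes through a short palindromic element in promoters. SPX proteins, which sense inositol pyrophosphates, hold these factors back when phosphate is ample.

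The phl2 columns were not independent. After division by the worth of 1 read, read numbers matched in 81.0% of the genes detected there (relative tolerance 0.001). No other pair of columns exceeded 9.62%. Over genes with at least 10 estimated reads in the pair, the mean chi-square per gene was 0.155 between the phl2 columns, against 1.226 and 1.101 between the fed and the starved wild-type libraries, where counting noise alone gives 1. By this measure the phl2 columns differed by less than the sampling noise over genes as a whole, although 67 of 15511 genes (0.43%) lay above the 95th percentile of the chi-square distribution, and replicate 6 was lower in each of the 4030 genes that were unequal. Their mean was counted as 1 sample. That sample brings no estimate of spread, and the fit gives it the spread of the wild-type libraries. The reads in the table came to an estimated 609308 to 901639 per column, or 5.44% to 9.07% of the estimated denominators, and 20607 to 21900 genes were above 0. In a gene of 1 kb, each unit of RPKM rests on about 9.3 to 12.7 reads. The strand that was counted is not given in the sources used here, so reads of a gene and of an overlapping gene on the other strand cannot be told apart. The share of a gene's exons that faces such a gene is given below where it is large. As deposited, the median tested gene differed by -0.14 on the log2 scale between phl2 and fed wild type. Levels below are rescaled RPKM, in which this median is 0.003, and changes are differences of log2(rescaled RPKM + 1) ± SE from limma. The added 1 understates changes of low genes.

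PHL2 (AT3G24120, chromosome 3, 8705608 to 8708336, minus strand, TAIR10.1) checks the genotype label. Its level was 1.66 and 2.85 in the fed wild-type libraries, 1.57 and 1.83 in the starved ones and 1.27 in phl2. The phl2 value was the lowest, but the fed libraries lay far apart from each other, and the log2 difference from them was -0.49 ± 0.24 (adjusted p = 0.247, limma). Without replicate 1, the lower of the fed libraries, the difference was -0.76 ± 0.18 and was called (adjusted p = 0.0396, limma); without replicate 2 it was -0.23 ± 0.19 (adjusted p = 0.453, limma). Whether PHL2 was called lower thus depended on 1 fed library, and the part of the gene that the mutation affects is not named in the labels. PHR1, the best known activator of the family, stood at 1.58 and 1.35 in fed wild type and 1.22 in phl2 (log2 difference -0.15 ± 0.17, adjusted p = 0.629, limma). PHL1, its close relative, stood at 1.13 and 1.09 against 0.93 (-0.13 ± 0.16, adjusted p = 0.66, limma). PHL3 and PHL4 were below the level for testing. As deposited, PHL3 was listed at 0.32 and 0.54 RPKM with phosphate, against 0.12 and 0.14 for phl2. PHL4 was listed at 0.86 and 0.75 RPKM against 0.40 and 0.47.

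Starved phl2 roots differed from fed wild-type roots in 1184 genes, 10.3% of those tested, at an adjusted p under 0.05 in limma. Of these, 594 (5.18%) were higher in phl2 and 590 (5.15%) were lower. The median change was 0.99 among the genes called higher and -0.93 among those called lower. A change of at least 1 on the log2 scale was reached by 287 of the higher and 251 of the lower genes, and a change of at least 2 by 44 and 17. In the same fit, starved wild type against the same fed libraries gave 928 genes higher (8.1%) and 1342 lower (11.7%), 19.8% in both directions. These counts rest on 2 starved wild-type libraries against 1 phl2 sample, so their sizes are not a measure of how strong each response was. Directly against starved wild type, phl2 had 8 genes called higher (0.0698%) and 2 called lower (0.0174%), together 0.0872%. In the values as deposited, 291 genes were called higher and 598 lower, so 32.7% of calls were rises in place of 50.2%. Without replicate 3, 219 were higher and 175 lower; without replicate 4, 252 and 208; and without replicate 2, 944 and 759. The phl2 columns lay wholly above or below both fed libraries in 74.6% of tested genes, so a gap between the groups in a single gene is common. With only the 2 compared groups in the fit the counts were 100 and 40, and without a filter on low values 91 and 18.

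The filter on low values bears on which genes could be called. Without the phl2 columns 173 tested genes would fail it, of which 41 were called higher, and 41 tested genes reached 1 RPKM in phl2 columns alone, of which 25 were called higher. Without the fed libraries 655 would fail it, of which 149 were called lower, and 173 reached 1 RPKM in fed libraries alone, of which 100 were called lower. For genes that reached 1 RPKM in 1 of the compared groups alone, the filter set the direction of the difference, and their values are a description. In all, 1862 tested genes reached 1 RPKM in no fed library, and 292 of them were called higher. These include the genes that reached it in phl2 columns alone.

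**Figure D1:**
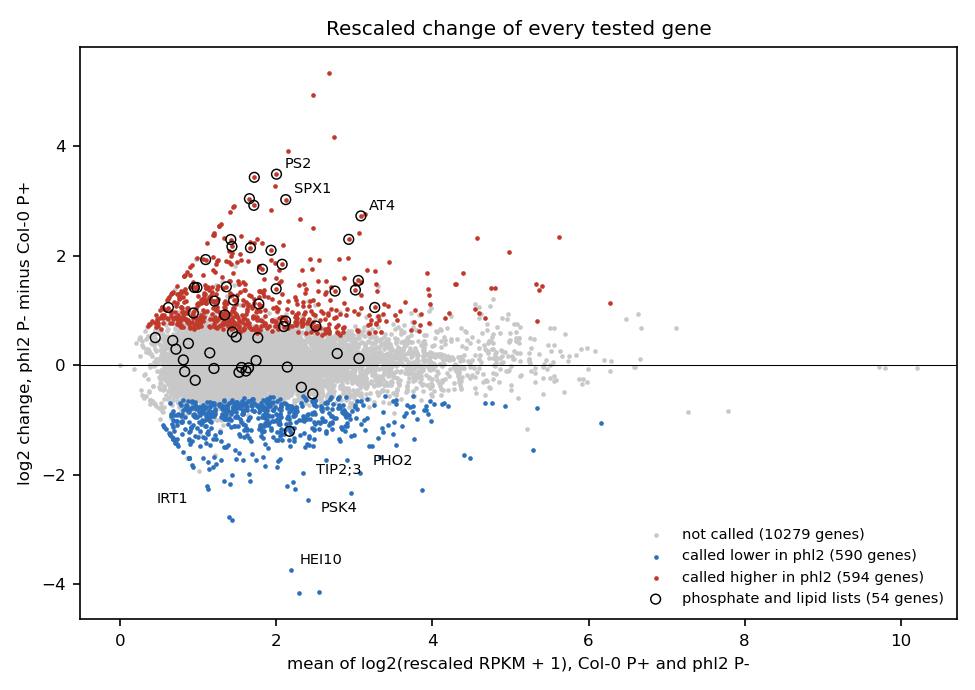
Each point is 1 of the 11463 tested genes, with its mean log2(rescaled RPKM + 1) over fed Col-0 and starved phl2 on the horizontal axis and its log2 change on the vertical axis; red and blue mark the 594 genes called higher and the 590 called lower, and circles mark the 54 tested members of the phosphate and lipid lists. The circles lie mostly above 0, and the only circled blue point is PHO2.

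Phosphate signalling genes were called more often higher than lower in starved phl2 roots. Of 14 tested members of 18, 6 rose and 1 fell, with a median change of 0.32 beside 0.003 over all tested genes, against background shares of 5.18% higher and 5.15% lower. No fed library reached 1 RPKM for 4 of the 14, a selection that favours a rise. SPX1, an SPX sensor protein, was at 0.49 and 0.55 in fed wild type, 12.4 and 10.9 in starved wild type and 11.4 in phl2. It rose by 3.03 ± 0.15 (adjusted p = 0.000465, limma), and the phl2 level fell between the starved wild-type libraries. SPX3, of the same family, was listed at 0 and 0.39 in fed wild type, 9.61 and 8.28 in starved wild type and 7.95 in phl2 (2.92 ± 0.22, adjusted p = 0.00193, limma). SPX2 also rose, by 1.19 ± 0.15.

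The noncoding RNAs IPS1 and AT4 mimic the target of the microRNA miR399 and so hold it away from PHO2. IPS1 was listed at 0.20 and 0 in fed wild type, 8.53 and 7.07 in starved wild type and 8.02 in phl2 (3.04 ± 0.18, adjusted p = 0.000866, limma). AT4 was at 1.85 and 2.77, then 18.5 and 19.3, and 20.7 in phl2 (2.73 ± 0.19, adjusted p = 0.00139, limma). Both RNAs were high in every starved sample and low in every fed one. PHO2, the ubiquitin-conjugating enzyme that lowers phosphate transporters, went the other way. It was at 6.12 and 5.54 in fed wild type, 2.56 and 2.54 in starved wild type and 1.96 in phl2, a fall of 1.21 (SE 0.14, adjusted p = 0.00642, limma). WRKY45, a transcription factor that activates a phosphate transporter gene, rose from 2.1 and 2.77 to 15.8 in phl2 (2.30 ± 0.21, adjusted p = 0.00289, limma), beside 10.9 and 14.4 in starved wild type.

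The remaining 7 signalling genes were not called. WRKY6, a repressor of PHO1, was at 1.29 and 1.39 in fed wild type and 2.35 in phl2 (0.52 ± 0.15, adjusted p = 0.0767, limma), the nearest to the threshold. The differences of the inositol phosphate kinases AT3G01310 (-0.28) and ITPK1 (-0.13) were small beside those of the called members. So were those of the MYB factor HRS1 (0.12), the SUMO ligase SIZ1 (-0.11), WRKY75 (0.09) and the zinc finger factor ZAT6 (-0.04).

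Phosphate transport genes rose in phl2 without a called fall: 8 of 12 tested members of 17 were called higher, with a median change of 1.25. No fed library reached 1 RPKM for 7 of the 12, a selection that favours a rise. The PHT1 proteins carry phosphate across the plasma membrane. PHT1;9 was at 0.45 and 0.57 in fed wild type, 4.94 and 5.14 in starved wild type and 5.68 in phl2 (2.15 ± 0.14, adjusted p = 0.00115, limma). PHT1;4, a major high-affinity carrier of roots, was at 0.90 and 0.95, then 8.80 and 7.55, and 5.49 in phl2 (1.75 ± 0.15, adjusted p = 0.00243, limma). PHT1;8 was at 0.27 and 0.15, then 2.70 and 2.76, and 2.23 in phl2 (1.42 ± 0.15, adjusted p = 0.00542, limma). In all of these genes the phl2 level lay well clear of both fed libraries.

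PHT1;1 and PHT1;2 are near-identical neighbours, so how reads were divided between them is uncertain. PHT1;2 was at 4.41 and 3.63 in fed wild type, 22.6 and 20.2 in starved wild type and 12 in phl2 (1.37 ± 0.16, adjusted p = 0.00668, limma). PHT1;1 was at 6.11 and 5.20, then 21.8 and 20.6, and 12.8 in phl2 (1.06 ± 0.15, adjusted p = 0.0115, limma). In both, phl2 lay between the fed and the starved wild-type libraries. The difference from starved wild type was -0.79 ± 0.16 for PHT1;2 and was not called (adjusted p = 0.142, limma).

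Outside the PHT1 family, G3Pp1, a member of the glycerol-3-phosphate permease family, was at 0.85 and 0.84 in fed wild type, 9.28 and 8.38 in starved wild type and 6.90 in phl2 (2.1 ± 0.14, adjusted p = 0.00115, limma). PHO1;H1, a relative of the xylem-loading exporter PHO1, was at 0.28 and 0.09, then 2.05 and 2.21, and 2.15 in phl2 (1.42 ± 0.17, adjusted p = 0.00692, limma). PHF1, which helps PHT1 proteins leave the endoplasmic reticulum, rose by 1.12 ± 0.16. PHO1 itself was not called (5.75 and 5.50 against 3.60, -0.52 ± 0.14, adjusted p = 0.0723, limma). Nor were PHT1;3 (0.50), the mitochondrial carrier PHT3;1 (0.21) and the plastid carrier PHT2;1 (0.10).

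Enzymes that free phosphate from organic compounds rose in 6 of 12 tested members of 18, with a median change of 0.71 and no called fall. For 3 of the 12 no fed library reached 1 RPKM, a selection that favours a rise. PS2, a phosphatase of starved plants, was at 0.18 and 0.21 in fed wild type, 14.3 and 12.9 in starved wild type and 12.4 in phl2 (3.49 ± 0.14, adjusted p = 0.000335, limma). PECP1, a phosphoethanolamine and phosphocholine phosphatase, was listed at 0 in both fed libraries, at 11.7 and 10.4 in starved wild type and at 9.81 in phl2 (adjusted p = 0.000335, limma). These were the largest rises among the members of the phosphate lists.

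Purple acid phosphatases rose less. PAP12, a secreted form, was at 1.63 and 1.29 in fed wild type, 6.18 and 5.69 in starved wild type and 5.47 in phl2 (1.4 ± 0.15, adjusted p = 0.00564, limma). PAP17 was at 2.91 and 3.53, then 10.3 and 8.95, and 9.75 in phl2 (1.35 ± 0.16, adjusted p = 0.00703, limma). PAP22 was at 0.46 and 0.29, then 3.45 and 3.99, and 1.66 in phl2 (0.95 ± 0.17, adjusted p = 0.0201, limma), so that phl2 stood below both starved wild-type libraries. PAP7 rose by 0.81 ± 0.15 (adjusted p = 0.0253, limma). As deposited, PAP22 and PAP7 were not called (adjusted p = 0.0615 and 0.0928, limma), which left 4 members higher. Those not called were PAP10 (0.61), the ribonuclease RNS2 (0.50), PAP2 (0.23), PAP8 (-0.03), the nuclease BFN1 (-0.12) and the vacuolar phosphatase PAP26 (-0.40).

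Starved plants replace phospholipids by galactolipids and sulpholipids. Genes of this exchange rose in 11 of 16 tested members of 19, with a median change of 0.99 and no called fall. For 10 of the 16 no fed library reached 1 RPKM, a selection that favours a rise. MGD3, a galactolipid synthase, was at 0.26 and 0.15 in fed wild type, 6.54 and 6.42 in starved wild type and 4.91 in phl2 (2.30 ± 0.15, adjusted p = 0.000933, limma). SQD2, which completes sulpholipid, was at 1.09 and 1.35, then 8.81 and 8.22, and 6.97 in phl2 (1.84 ± 0.15, adjusted p = 0.00229, limma). UGP3, which makes the sugar nucleotide used for sulpholipid, was at 0.51 and 0.57, then 2.93 and 3.08, and 2.46 in phl2 (1.17 ± 0.15, adjusted p = 0.008, limma). Each of the 3 genes was high in starved phl2, at a level below both starved wild-type libraries.

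The enzymes that take phospholipids apart also rose. The phospholipase C gene NPC4 was at 0.29 and 0.26 in fed wild type, 5.35 and 7.08 in starved wild type and 4.72 in phl2 (2.17 ± 0.18, adjusted p = 0.00241, limma). The phospholipase D gene PLDP2 was at 0.15 and 0.03, then 3.79 and 3.88, and 3.16 in phl2 (1.93 ± 0.15, adjusted p = 0.00229, limma). GDPD1, a glycerophosphodiesterase, was at 3.22 and 4.50, then 12.8 and 13.3, and 13.1 in phl2 (1.55 ± 0.19, adjusted p = 0.00702, limma); a gene on the other strand faces 44.7% of its exons. SQD1 (1.43), MGD2 (1.05), the phosphatidate phosphatase PAH1 (0.92), GDPD2 (0.72) and GDPD5 (0.71) were called as well. DGD2 (0.45), DGD1 (0.40), MGD1 (0.29), PAH2 (-0.05) and PLDP1 (-0.06) were not. Without replicate 3 the count of lipid genes called higher was 7.

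Over the phosphate signalling, transport, phosphatase and lipid lists together, 31 of 54 tested members were called higher and 1 lower in phl2 against fed wild type, with a median change of 0.94. All 54 would pass the filter on low values without the phl2 columns. However, 24 of them reached 1 RPKM in no fed library, a selection that favours a rise. Starved wild type against the same fed libraries gave 37 higher and 1 lower, with a median of 1.11. Set directly against starved wild type, 43 of the 54 members were lower in phl2 by value and 11 were higher, with a median difference of -0.15 beside -0.01 for all tested genes. None of the 54 was called in that comparison in limma, and 8 had an unadjusted p under 0.05, beside 2169 of the 11463 tested genes.

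**Figure D2:**
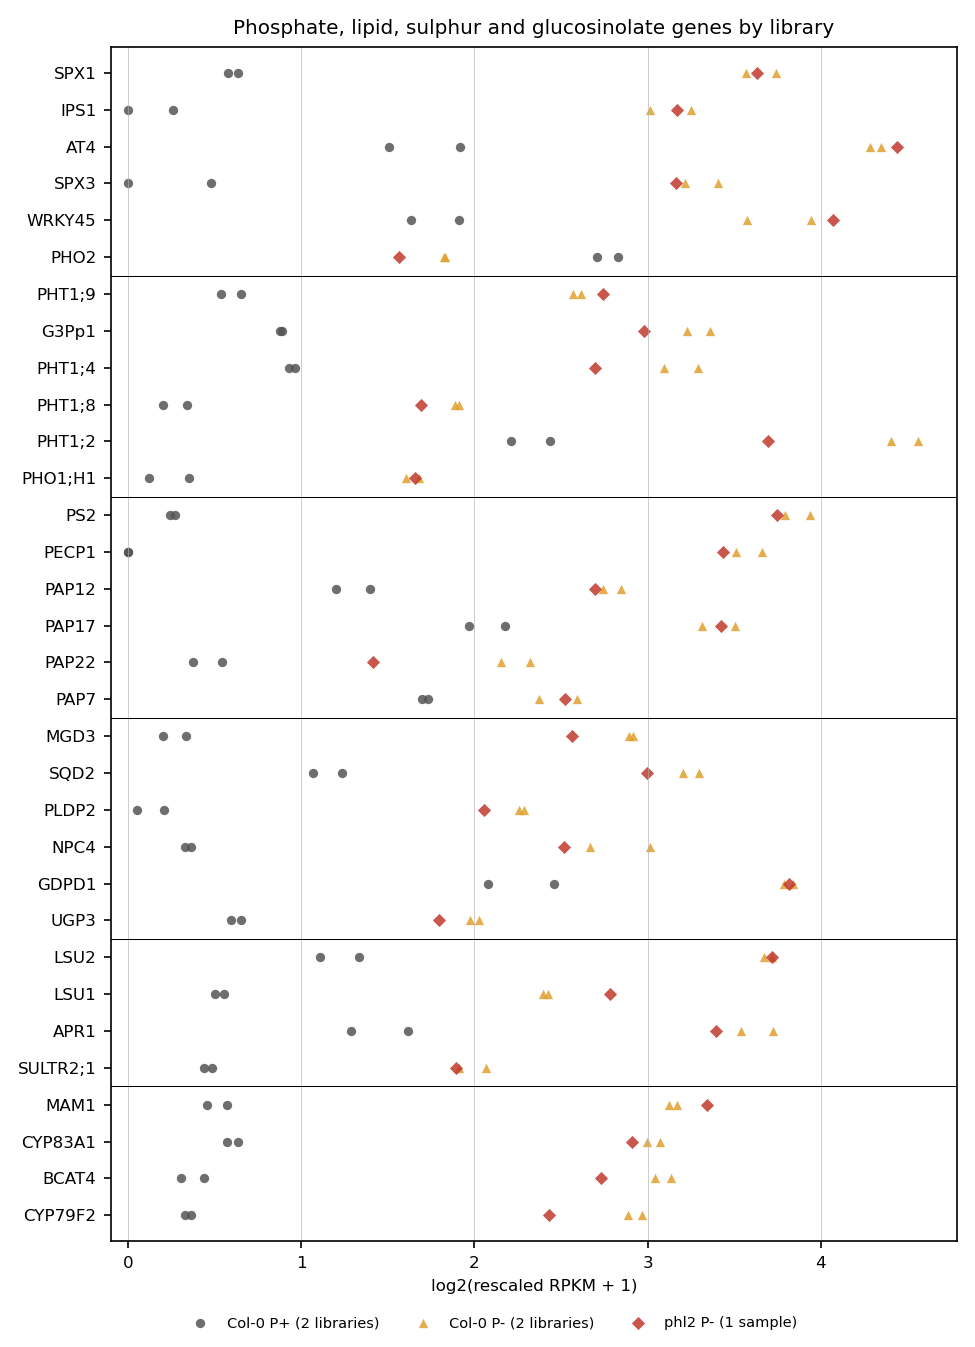
Each row is 1 named gene of phosphate, lipid, sulphur or glucosinolate metabolism, and each symbol is the log2(rescaled RPKM + 1) of 1 fed Col-0 library, 1 starved Col-0 library or the single phl2 sample. The phl2 diamonds lie apart from the fed circles and mostly near the starved wild-type triangles. For PAP22 and PHT1;2 the diamond lies between the circles and the triangles. For PHO2 the fed circles are the higher ones.

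The promoters of phosphate list members are shown because PHR factors are known to bind the palindrome GNATATNC, which reads the same on both strands. The windows hold the 250 bases before each annotated start, cut from the RefSeq genome TAIR10.1 and written 5′ to 3′ on the gene's strand, with the palindrome in capitals. The first 5 belong to the largest rises that held a match: PS2 (chr1:27466349-27466598, minus strand), SPX3 (chr2:18606160-18606409, plus strand), AT4 (chr5:894332-894581, plus strand), NPC4 (chr3:845097-845346, minus strand) and PLDP2 (chr3:1634944-1635193, plus strand). The last 2 belong to members that held a match and were not called: PAP8 (chr2:399339-399588, minus strand) and ZAT6 (chr5:1217363-1217612, minus strand).
PS2: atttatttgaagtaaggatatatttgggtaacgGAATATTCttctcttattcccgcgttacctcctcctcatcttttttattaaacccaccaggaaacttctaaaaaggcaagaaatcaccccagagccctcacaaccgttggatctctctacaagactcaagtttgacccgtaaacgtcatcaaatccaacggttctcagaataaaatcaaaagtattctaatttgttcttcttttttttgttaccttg
SPX3: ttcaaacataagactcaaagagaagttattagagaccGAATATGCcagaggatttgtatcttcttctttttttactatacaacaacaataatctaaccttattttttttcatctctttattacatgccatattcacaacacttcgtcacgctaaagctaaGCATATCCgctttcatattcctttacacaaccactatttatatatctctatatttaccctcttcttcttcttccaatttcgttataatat
AT4: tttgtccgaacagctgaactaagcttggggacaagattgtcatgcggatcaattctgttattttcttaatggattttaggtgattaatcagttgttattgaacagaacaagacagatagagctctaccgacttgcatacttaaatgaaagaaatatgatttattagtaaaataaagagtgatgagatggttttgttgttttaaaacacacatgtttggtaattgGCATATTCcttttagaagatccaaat
NPC4: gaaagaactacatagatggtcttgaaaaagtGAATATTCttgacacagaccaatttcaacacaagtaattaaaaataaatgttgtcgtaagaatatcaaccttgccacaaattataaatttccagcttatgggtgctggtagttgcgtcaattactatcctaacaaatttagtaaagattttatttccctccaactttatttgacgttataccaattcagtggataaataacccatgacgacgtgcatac
PLDP2: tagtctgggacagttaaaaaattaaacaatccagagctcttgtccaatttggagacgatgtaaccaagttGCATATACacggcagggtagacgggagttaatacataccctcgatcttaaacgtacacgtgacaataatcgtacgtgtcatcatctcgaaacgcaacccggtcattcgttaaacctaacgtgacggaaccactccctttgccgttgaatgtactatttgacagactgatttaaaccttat
PAP8: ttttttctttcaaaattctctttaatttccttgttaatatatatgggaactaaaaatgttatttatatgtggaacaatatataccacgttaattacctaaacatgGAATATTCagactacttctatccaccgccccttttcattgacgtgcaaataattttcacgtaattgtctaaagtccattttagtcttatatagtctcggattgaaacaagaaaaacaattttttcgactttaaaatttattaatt
ZAT6: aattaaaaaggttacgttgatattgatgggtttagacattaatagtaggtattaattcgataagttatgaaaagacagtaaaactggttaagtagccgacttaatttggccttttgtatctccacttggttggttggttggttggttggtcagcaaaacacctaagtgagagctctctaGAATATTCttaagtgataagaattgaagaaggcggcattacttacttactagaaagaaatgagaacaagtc

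Counted from the start, the match began at -217 in PS2, -219 in NPC4, -180 in PLDP2 and -26 in AT4, and SPX3 held a pair at -213 and -90. A match was found in 10 of 31 phosphate list members called higher (32.3%) and in 6 of 22 that were not called (27.3%). Among all genes it was found in 1724 of 32834 windows (5.25%). Of all 585 windows of genes called higher 55 held it (9.4%), as did 38 of 587 of those called lower (6.47%) and 593 of 10226 of those not called (5.8%). These are counts of letters in a short window and show no binding. PAP8, at 3.13 and 3.81 in fed wild type and 3.35 in phl2, carried the same 8 letters as PS2.

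Phosphoenolpyruvate carboxylase, which offers a way around phosphate-consuming steps of glycolysis, and the kinases that activate it rose in 4 of 5 tested members of 7 (median 0.87). PPC3, an enzyme gene, was at 2.64 and 2.72 in fed wild type, 7.79 and 7.89 in starved wild type and 7.39 in phl2 (1.19 ± 0.13, adjusted p = 0.00575, limma). PPCK1, a kinase gene facing another gene over 22% of its exons, was at 2.09 and 2.19, then 8.06 and 6.94, and 6.16 in phl2 (1.19 ± 0.15, adjusted p = 0.00788, limma). PPCK2 (0.87 ± 0.16) and PPC1 (0.80 ± 0.16) were called too, but not in the values as deposited or without replicate 3 or replicate 4, which each left 2 members higher. In the list of root apex genes for malate and iron, 1 of 5 tested members rose. This was ALMT1, the malate channel, listed at 0.61 and 0 in fed wild type, 3.89 and 4.08 in starved wild type and 3.12 in phl2 (1.70 ± 0.28, adjusted p = 0.0164, limma). It was not called with a pseudocount of 0.1, or without replicate 3 or replicate 4. STOP1, the transcription factor of ALMT1, was at 2.61 and 3.38 in fed wild type and 1.79 in phl2 and was not called (-0.51 ± 0.17, adjusted p = 0.112, limma).

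Genes of sulphur deficiency rose in 9 of 12 tested members of 17 (median 1.06), and none fell. Of the 12, 5 reached 1 RPKM in no fed library, a selection that favours a rise. LSU2 and LSU1, of the family named for the response to low sulphur, led them. LSU2 was at 1.15 and 1.52 in fed wild type, 11.7 and 12.2 in starved wild type and 12.2 in phl2 (2.5 ± 0.15, adjusted p = 0.000866, limma). LSU1 was at 0.41 and 0.47, then 4.26 and 4.37, and 5.90 in phl2 (2.26 ± 0.14, adjusted p = 0.000866, limma), the highest of the 5 samples. APR1, which reduces activated sulphate, was at 2.07 and 1.44, then 12.2 and 10.6, and 9.51 in phl2 (1.94 ± 0.18, adjusted p = 0.00336, limma). SULTR2;1, a sulphate carrier of vascular tissue, was at 0.35 and 0.40, then 3.19 and 2.77, and 2.72 in phl2 (1.43 ± 0.16, adjusted p = 0.00534, limma). As deposited 5 members were called higher, and without replicate 3 or replicate 4 the counts were 4 and 5.

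The sulphur-rich glucosinolates divide into a methionine-derived and a tryptophan-derived branch. Of 18 tested members of 21 in this list, 9 rose and 2 fell (median 0.55). Of the 18, 9 reached 1 RPKM in no fed library, a selection that favours a rise. MAM1, BCAT4, CYP83A1 and CYP79F2 are among these. MAM1, which lengthens the methionine chain, was at 0.37 and 0.49 in fed wild type, 8.02 and 7.73 in starved wild type and 9.14 in phl2 (2.83 ± 0.14, adjusted p = 0.000479, limma). BCAT4, an aminotransferase at the start of that branch with 21.2% of its exons facing another gene, was at 0.24 and 0.35, then 7.79 and 7.26, and 5.65 in phl2 (2.36 ± 0.15, adjusted p = 0.000866, limma). CYP83A1 was at 0.55 and 0.49, then 7.40 and 6.97, and 6.51 in phl2 (2.31 ± 0.14, adjusted p = 0.000866, limma). CYP79F2 was at 0.28 and 0.26, then 6.41 and 6.84, and 4.40 in phl2 (2.09 ± 0.14, adjusted p = 0.00117, limma), so phl2 again lay below both starved wild-type libraries there. MYB28, a regulator of the methionine branch, rose by 1.38 ± 0.15. The members that fell, CYP79B3 (-0.83) and CYP81F4 (-0.70), act in the tryptophan branch; neither fall was called without replicate 3 or replicate 4.

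Iron uptake genes mostly fell: 6 of 13 tested members of 22 were called lower and 0 higher (median -0.96). By value 10 of the 13 were lower in phl2 and 3 higher. In either direction, 10 of 13 had an unadjusted p under 0.05 in limma, beside 3051 of all 11463 tested genes. Starved wild type against the same fed libraries gave 2 members called higher and 7 lower. Of the 13, 5 would fail the filter on low values without the fed libraries, a selection that favours a fall. Of these 5, 3 were called lower, and of the other 8, 3 were. IRT1, the main iron importer of roots, was at 3.61 and 3.65 in fed wild type and was listed at 0 in both starved wild-type libraries and in phl2 (adjusted p = 0.00115, limma). FRO2, the ferric reductase that works with it, was at 2.88 and 3.60, then 0.03 and 0.16, and 0.13 in phl2 (-1.90 ± 0.18, adjusted p = 0.00336, limma). Both reached 1 RPKM in the fed libraries alone, so their falls were built into the filter and are given as levels. FIT, the transcription factor that activates both, was at 2.36 and 2.05 in fed wild type and 0.55 in phl2 (-1.04 ± 0.17, adjusted p = 0.0154, limma). BHLH39, its partner, was at 2.54 and 3.43, then 1.04 and 1.51, and 0.52 in phl2 (-1.38 ± 0.21, adjusted p = 0.0127, limma). OPT3, a transporter of the phloem, was at 1.92 and 2.21, then 1.05 and 0.98, and 0.33 in phl2 (-1.20 ± 0.16, adjusted p = 0.00876, limma). For BHLH39 and OPT3 the phl2 level was under that of both starved wild-type libraries, and the direct differences of -0.58 ± 0.21 and -0.60 ± 0.16 were not called (adjusted p = 0.217 and 0.165, limma).

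Iron stores and zinc uptake gave 0 calls over 5 and 4 tested members, with 1 and 0 at an unadjusted p under 0.05 in limma. FER1, a ferritin, was at 8.57 and 11.5 in fed wild type and 11 in phl2, within the fed range. The zinc carrier ZIP3 was at 1.53 and 1.64 against 2.05 (0.24 ± 0.16, adjusted p = 0.389, limma). In the nitrogen list 2 of 18 tested members rose and 4 fell (median -0.01). NIA2, the main nitrate reductase, was at 2.56 and 2.69 in fed wild type, 9.75 and 10.2 in starved wild type and 8.28 in phl2 (1.36 ± 0.13, adjusted p = 0.00391, limma). LBD39, a repressor of nitrate-responsive genes, was at 8.27 and 8.59, then 2.80 and 4.08, and 3.55 in phl2 (-1.05 ± 0.19, adjusted p = 0.023, limma). The nitrate exporter NRT1.5, which loads the xylem, was at 13.8 in both fed libraries and 8.07 in phl2 (-0.70 ± 0.13, adjusted p = 0.025, limma). Without replicate 3 or replicate 4, 1 member of the nitrogen list was called in each direction.

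Root hair genes rose in 8 of 17 tested members of 19 (median 0.75) and none fell. PRP3, a proline-rich wall protein of hairs, was at 1.82 and 2.05 in fed wild type, 6.13 and 6.79 in starved wild type and 7.13 in phl2 (1.47 ± 0.14, adjusted p = 0.00391, limma). LRX1, an extensin of growing hairs, was at 2.67 and 3.20, then 7.38 and 7.77, and 8.89 in phl2 (1.33 ± 0.15, adjusted p = 0.00575, limma). PRP1 was at 1.44 and 1.05, then 3.62 and 3.22, and 4.62 in phl2 (1.33 ± 0.17, adjusted p = 0.00817, limma). In these 3 genes phl2 was the highest sample. RHS18, at 3.51 in phl2, lay between the starved wild-type libraries (3.64 and 3.25). Against starved wild type, 12 of the 17 members were higher in phl2 by value and 5 lower. There 0 were called and 0 had an unadjusted p under 0.05 in limma, beside 2169 of the 11463 tested genes. All 6 root hair markers, of which 5 were tested, stood above both fed libraries in the phl2 mean. In either direction, both phl2 columns lay clear of the fed libraries in 74.6% of all tested genes. The share of genes lying above alone was not counted. The summed level of the markers was 9.63 and 9.12 in fed wild type, 23.9 and 23.5 in starved wild type and 26.4 in phl2. In bulk RNA, more or fewer cells of a type and more or less RNA per cell cannot be told apart. As deposited 4 members were called, and 5 without replicate 3 or replicate 4.

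Among 15 tested proline-rich extensins of 23, wall proteins that cross-link, 8 rose and none fell (median 1.14). AT5G06630 was at 10.7 and 8.52 in fed wild type, 34.6 and 38.5 in starved wild type and 52.2 in phl2 (2.33 ± 0.19, adjusted p = 0.00229, limma). EXT12 was at 4.32 and 4.23, then 10.2 and 10.5, and 16.5 in phl2 (1.73 ± 0.13, adjusted p = 0.00194, limma). AT4G08400 was at 10.05 and 11.4, then 21.5 and 27.3, and 36.6 in phl2 (1.68 ± 0.19, adjusted p = 0.00601, limma). The phl2 sample was the highest in each of them. Against starved wild type the differences were 0.50 ± 0.19, 0.62 ± 0.13 and 0.57 ± 0.19, of which none was called (adjusted p = 0.226, 0.143 and 0.2, limma). Of the 15 extensins, 6 had an unadjusted p under 0.05 in limma there, beside 2169 of the 11463 tested genes. These genes resemble one another, so the division of reads among them is uncertain.

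Xyloglucan endotransglucosylases, which cut and rejoin wall polymers, rose in 8 of 18 tested members of 29 (median 0.38). Of the 18, 6 reached 1 RPKM in no fed library, a selection that favours a rise. XTH14 was at 2.94 and 2.32 in fed wild type, 9.63 and 8.41 in starved wild type and 9.58 in phl2 (1.55 ± 0.17, adjusted p = 0.0053, limma). XTH26 was at 0.10 and 0.11, then 1.07 and 1.51, and 1.88 in phl2 (1.39 ± 0.18, adjusted p = 0.00817, limma). As deposited, and without replicate 3 or replicate 4, the count was 4. Of 50 tested class III peroxidases of 71, 10 rose and 5 fell (median 0.28), and 12 of the 50 reached 1 RPKM in no fed library. PRX52 was listed at 0 in both fed libraries, at 1.98 and 2.21 in starved wild type and at 2.13 in phl2 (adjusted p = 0.0033, limma). AT1G05250 was at 4.85 and 4.76, then 16.2 and 14.5, and 15.2 in phl2 (1.48 ± 0.14, adjusted p = 0.00353, limma), and it shares reads with its near-copy AT1G05240. Without replicate 3, 6 peroxidases were higher and 0 lower, and without replicate 4, 8 and 1.

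In the expansin family, 2 of 13 tested members rose and 1 fell. EXPA18, of root hairs, was at 1.92 and 1.56 in fed wild type and 5.10 in phl2 (1.16 ± 0.19, adjusted p = 0.0174, limma). EXPB3 was at 5.15 and 6.08, then 3.59 and 3.45, and 1.76 in phl2 (-1.26 ± 0.15, adjusted p = 0.007, limma), the lowest of the 5 samples. As deposited, neither EXPA18 nor the other called riser EXPA14 was called (adjusted p = 0.0646 and 0.128, limma), and without replicate 3 or replicate 4 the count of rises was 1.

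**Figure D3:**
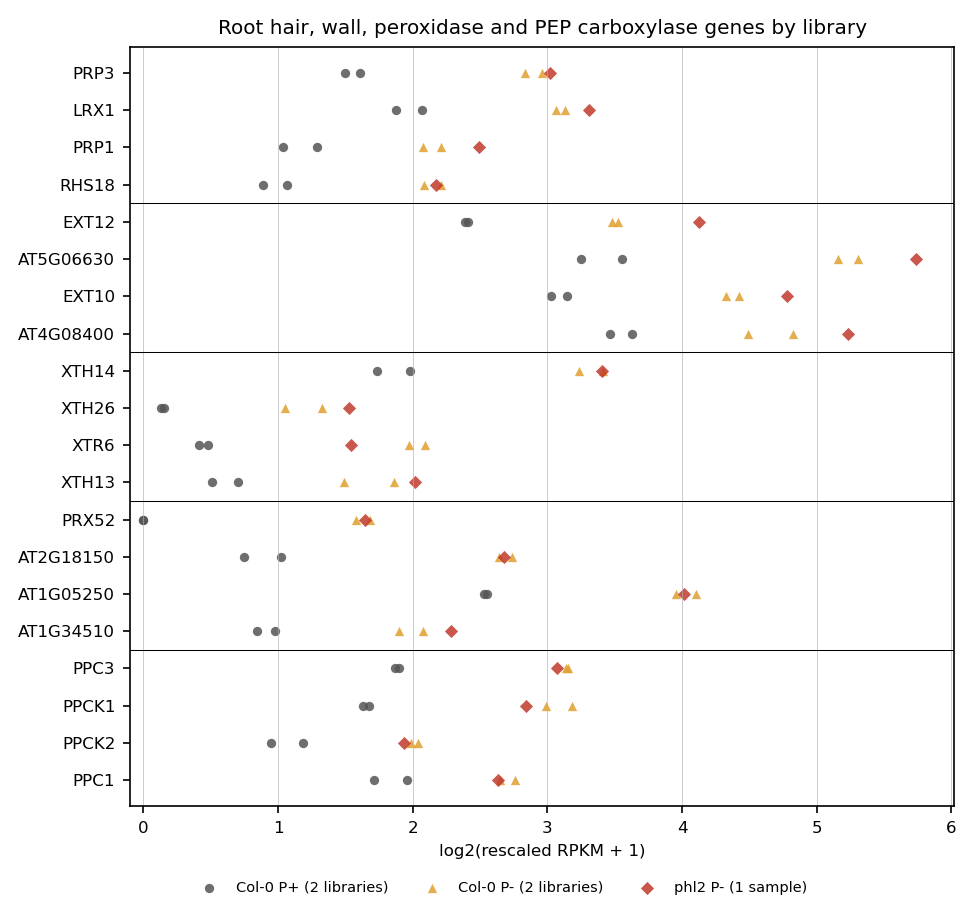
Each row is 1 named gene of the root hair, extensin, xyloglucan endotransglucosylase, peroxidase or phosphoenolpyruvate carboxylase group, and each symbol is the log2(rescaled RPKM + 1) of 1 library or of the single phl2 sample. In the 4 extensin rows the phl2 diamond lies to the right of both starved wild-type triangles.

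Aquaporins, the channels for water and small solutes, fell in 11 of 24 tested members of 37, 1 rose and 12 were not called (median -0.54). TIP2;3, a channel of the vacuole membrane, was at 8.64 and 8.25 in fed wild type, 2.16 and 2.21 in starved wild type and 1.03 in phl2 (-2.21 ± 0.14, adjusted p = 0.000866, limma). TIP2;2 was at 13.4 and 11.8, then 3.23 and 3.38, and 3.11 in phl2 (-1.73 ± 0.14, adjusted p = 0.00241, limma). RD28, a channel of the plasma membrane, was at 17.2 and 14.2, then 4.22 and 3.01, and 3.22 in phl2 (-1.98 ± 0.21, adjusted p = 0.00476, limma). No fed library overlapped a starved sample in these genes. Between the phl2 columns and the fed libraries alone, 74.6% of all tested genes had no overlap. RD28 and its neighbour PIP2B (-1.34) are close copies, and the division of reads between them is uncertain. The member that rose was TIP1;3, listed at 0 in both fed libraries, at 2.61 and 3.46 in starved wild type and at 6.0 in phl2 (adjusted p = 0.000933, limma). Without replicate 3 the count of falls was 7.

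Photosynthesis genes, which roots express weakly, fell in 6 of 7 tested members of 13 (median -1.04). RBCS1A, a Rubisco small subunit, was at 4.48 and 3.99 in fed wild type, 1.65 and 1.03 in starved wild type and 0.21 in phl2 (-2.11 ± 0.20, adjusted p = 0.00336, limma). RCA, the Rubisco activase, was at 3.39 and 4.12, then 1.31 and 1.34, and 0.61 in phl2 (-1.56 ± 0.16, adjusted p = 0.00476, limma). PSBO1, of photosystem II, was at 4.90 and 5.03, then 2.12 and 1.27, and 1.83 in phl2 (-1.07 ± 0.21, adjusted p = 0.0266, limma). The summed level of all 13 markers was 34.7 and 36.2 in fed wild type, 18.2 and 15.2 in starved wild type and 12.7 in phl2. Each of the 13 was lower in phl2 than in both fed libraries, and RBCS1B, RBCS2B and RBCS3B were listed at 0. A gap from both fed libraries, in either direction, was found in 74.6% of all tested genes. Whether carry-over of shoot tissue differed between samples was not tested. Without replicate 3 or replicate 4, 3 members were called lower, and 2 with a pseudocount of 0.1.

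Xylem wall genes fell in 3 of 8 tested members of 13 (median -0.22), and 3 of the 8 were higher by value without a call. In starved wild type against the same fed libraries the median was -0.57. The protease gene XCP2 was at 5.68 and 4.91 in fed wild type, 2.88 and 2.89 in starved wild type and 2.51 in phl2 (-0.84 ± 0.15, adjusted p = 0.0201, limma). LAC4, a laccase of lignin formation, was at 3.65 and 4.11 against 1.77 in phl2 (-0.81 ± 0.15, adjusted p = 0.0225, limma). XCP1 was the other (-0.67 ± 0.16). None of these was called without replicate 3 or replicate 4. The 5 xylem markers summed to 18.2 and 20.1 in fed wild type, 10.2 and 11 in starved wild type and 12.2 in phl2. In the endodermis and suberin list 1 of 18 tested members was called lower and 0 higher, near the 5.15% of all tested genes called lower. CASP2, which builds the Casparian strip, was at 1.68 and 1.60, then 0.98 and 0.82, and 0.39 in phl2 (-0.92 ± 0.15, adjusted p = 0.0178, limma), and was not called without replicate 3 or replicate 4; it would fail the filter on low values without the fed libraries. The 6 endodermal markers summed to 6.36 and 6.14, then 5.13 and 5.84, and 4.19 in phl2. In phl2, 3 of the 6 lay below both fed libraries and 1 above both. Of the flavonoid genes 2 of 13 were tested, and CHS, chalcone synthase, fell from 7.74 and 8.72 to 2.33 (-1.47 ± 0.16, adjusted p = 0.00517, limma), beside 3.20 and 2.67 in starved wild type.

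**Figure D4:**
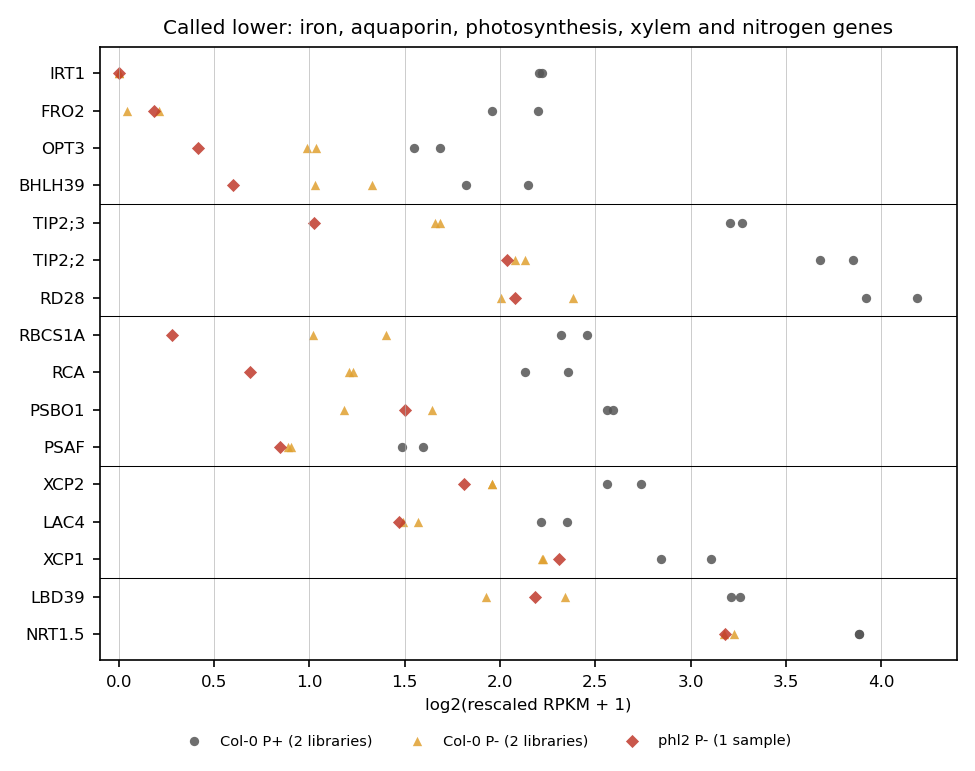
Each row is 1 named gene of iron uptake, aquaporins, photosynthesis, xylem or nitrogen that was called lower (named members that rose are not drawn), and each symbol is the log2(rescaled RPKM + 1) of 1 library or of the single phl2 sample. In every row the fed circles lie to the right of the phl2 diamond, and IRT1 lies at 0 in all starved samples.

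Among the 12 largest rises that met the naming rule, members of the phosphate lists stood beside genes of less known role. Each of the 12 reached 1 RPKM in no fed library, a selection that favours a rise. The top pair were the transcribed pseudogenes AT1G67610 and AT1G67645, both on chromosome 1. AT1G67610 (25339036 to 25340241) was listed at 0 in both fed libraries, at 24.7 and 29.7 in starved wild type and at 39.5 in phl2 (adjusted p = 0.000103, limma). AT1G67645 (25355112 to 25356129) was listed at 0 in both, at 18.2 and 20.9, and at 29.7 in phl2 (adjusted p = 0.000103, limma). Neither has an exon facing another gene, and their phl2 levels exceeded those of starved wild type by 0.53 ± 0.16 and 0.58 ± 0.15, which was not called (adjusted p = 0.18 and 0.161, limma).

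AT5G53050, with 31.6% of its exons opposite to the noncoding locus AT5G53048, was at 0.84 and 0.34 in fed wild type, 17.4 and 18.7 in starved wild type and 27.1 in phl2 (4.16 ± 0.21, adjusted p = 0.000479, limma). AT1G56242, a long noncoding RNA that faces PP2-B13 over 64.7% of its exons, was at 0.34 and 0.19, then 6.45 and 7.02, and 11.2 in phl2 (3.27 ± 0.15, adjusted p = 0.000407, limma). AT5G20790 was listed at 0.29 and 0, then 13.3 and 13.0, and 16.1 in phl2 (3.92 ± 0.18, adjusted p = 0.000407, limma). AT2G18530, annotated as a protein kinase, was listed at 0 in both fed libraries, at 3.88 and 3.16 in starved wild type and at 6.49 in phl2 (adjusted p = 0.000866, limma). TI1, a trypsin inhibitor, was listed at 0 in both, at 7.62 and 6.27, and at 6.42 in phl2 (adjusted p = 0.000866, limma).

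The largest falls were in the neighbouring pseudogenes AT1G33813 and AT1G33817 on chromosome 1. AT1G33813 (12273243 to 12274646) was at 19.1 and 20.3 in fed wild type, 0.10 and 0.21 in starved wild type and 0.15 in phl2 (-4.16 ± 0.15, adjusted p = 0.000222, limma). AT1G33817 (12274982 to 12276763) was at 21.3 and 26.1, then 0.16 and 0.04, and 0.39 in phl2 (-4.14 ± 0.17, adjusted p = 0.000335, limma). Both reached 1 RPKM in the fed libraries alone, so the filter set the direction of these falls. PSK4, a precursor of the growth peptide phytosulfokine, was at 11.1 and 11.7, then 3.39 and 2.60, and 1.25 in phl2 (-2.46 ± 0.17, adjusted p = 0.00115, limma). Its neighbour AT3G49790 fell from 7.99 and 10.7 to 1.14 (-2.26 ± 0.19). MLO3, of the MLO membrane protein family, was at 15.2 and 17.9, then 1.02 and 1.42, and 2.45 in phl2 (-2.34 ± 0.18, adjusted p = 0.00187, limma).

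The other falls were AT3G27025 (7.49 and 9.99 against 1.20), AT1G68845 (5.13 and 6.06 against 0.52; 1 RPKM reached in the fed libraries alone) and AT4G26290 (29.997 and 32.7 against 5.62), of which the last lies wholly opposite to AT4G26288. The transfer RNA gene AT4G12065, of 73 bases, was at 4.39 and 8.24 and listed at 0 in phl2; a fragment this short rests on few reads.

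HEI10, a ubiquitin ligase of meiotic crossover formation, and MRD1, named for its response in the mto1 mutant, overlap on opposite strands of chromosome 1 (19963267 to 19966952 and 19963047 to 19964712), over 41.3% and 89.8% of their exons. HEI10 was at 13.9 and 17.4 in fed wild type, 9.64 and 9.87 in starved wild type and 0.24 in phl2 (-3.74 ± 0.17, adjusted p = 0.000407, limma). MRD1 was at 4.87 and 7.03, then 6.16 and 7.99, against a listed 0 in phl2 (adjusted p = 0.00241, limma). Here phl2 stood apart from starved wild type as well (adjusted p = 0.00433 for HEI10 and 0.0151 for MRD1, limma), and these were the only 2 genes called lower in that comparison. Reads of the pair cannot be told apart by strand.

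**Figure D5:**
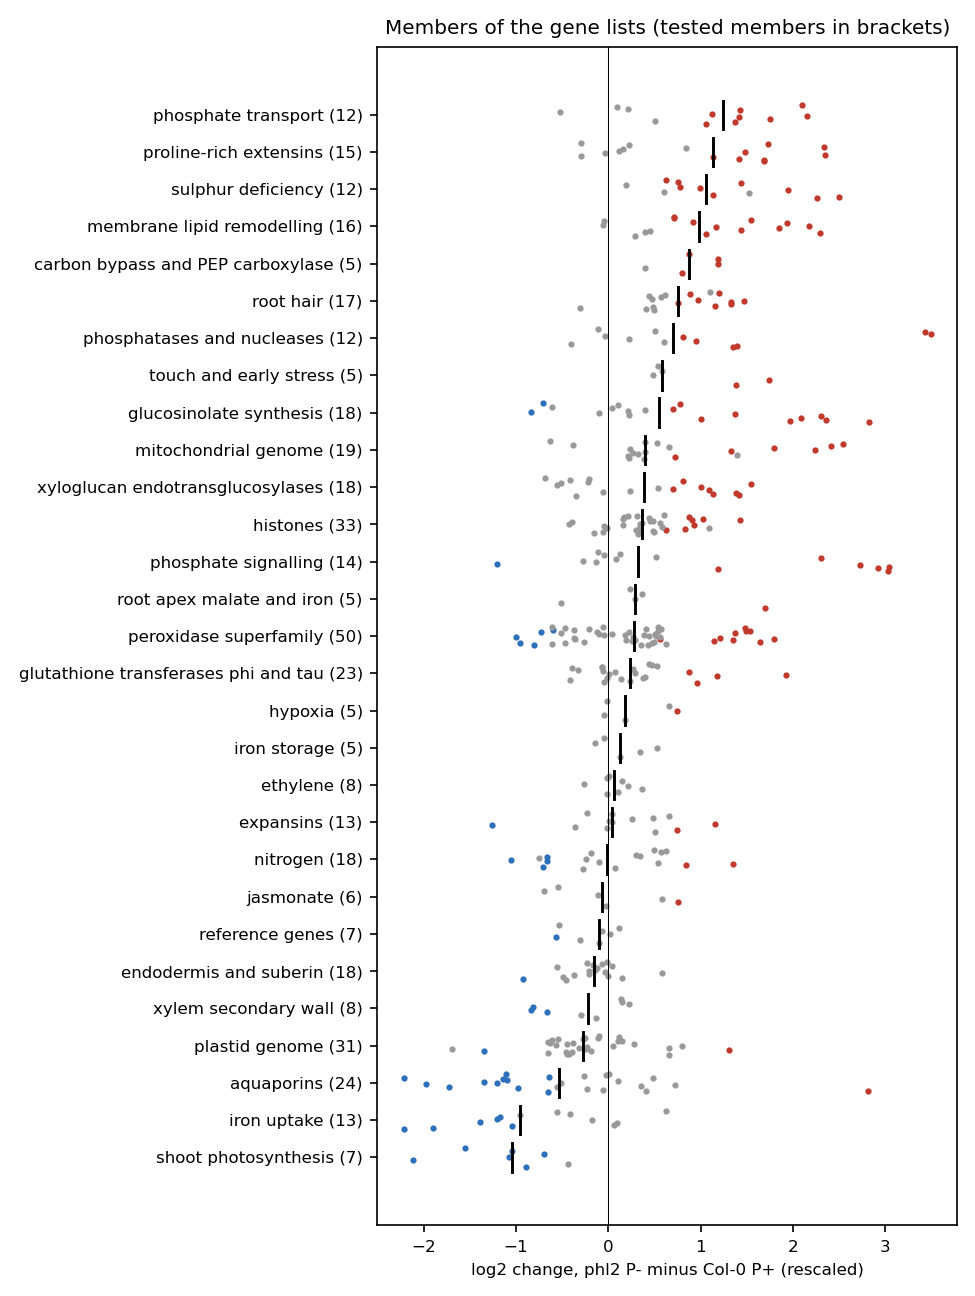
Each row is a gene list with 5 or more tested members, and each point is the log2 change of 1 member in starved phl2 against fed Col-0, red where called higher, blue where called lower and grey where not called; the black bar is the median of the tested members. The medians run from 1.25 in phosphate transport to -1.04 in shoot photosynthesis.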

How the data were processed

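Polyadenylated RNA was extracted with an RNeasy kit and made into strand-specific dUTP libraries, per the labels' protocols. The authors deposited RPKM values, 1 table of 33602 genes and 6 columns. TopHat2, DESeq2 and the build TAIR10 are named, per the submitters' processing notes, without versions or roles. The counter and its strand setting are not stated in those sources. Denominators and reads were estimated from low values times exonic length; between 45.9% and 50.02% of these were whole reads within a tolerance of 0.1, in part by chance, so no count test was run and these figures are approximate.

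Genes reaching 1 RPKM in 2 columns or more were tested. The mean of the phl2 columns was 1 sample. Each sample was divided by its median ratio to the genes' geometric means (factors 0.994, 0.831, 1.36, 1.22 and 0.775 for replicates 1 to 4 and phl2), and limma 3.58.1 in R 4.3.3 was fitted to log2(RPKM + 1) with a trend, 1 mean per group and 5 samples (2 residual degrees of freedom, prior 4.41), two-sided, with Benjamini-Hochberg adjustment over all tested genes and calls at adjusted p under 0.05. The script was tested on simulated data. No correction was made for the alternatives tried (15 planned, 2 added). RefSeq's TAIR10.1 annotation matched 32835 genes and supplied names, 1-based coordinates, opposite-strand exons and promoters; 11 list members without a matching name were dropped.

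The comparison, 25 gene lists and 9 gene families were chosen with earlier results of these data known. The naming rule took the PHR family, then the 12 largest rises and 12 largest falls among called genes that reached 5 RPKM in one of the groups without overlapping fed wild type, then the 4 best members per list by adjusted p (6 in the phosphate and lipid lists), and the uncalled members of the phosphate lists. Other members were named after their values were seen.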

Additional observations from a re-analysis of the deposited data

How the results depend on the processing

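Rescaling, filter, fit and library choices moved the number of calls. Beside 594 genes higher and 590 lower, the values as deposited gave 291 and 598. Without a filter on low values the counts were 91 and 18 over 24207 genes, and with only the compared groups in the fit 100 and 40. With both phl2 columns as replicates they were 1890 and 1819; that fit counts the same reads as independent. Leaving out 1 replicate at a time gave 219 to 944 genes higher and 175 to 759 lower. Leaving out replicate 3 or 4, which supply part of the shared estimate of spread, leaves a lone starved wild-type library, assumed to vary like the others. Quantile normalization, pseudocounts of 0.1 and 0.5, the filter over 5 samples and genes with no opposite-strand exon kept both counts within 1.5 times. So did alternatives chosen after seeing the data: exons of at least 300 bp, and loci with the same values counted once. Of 115 called named genes, 0 changed direction under the settings run, and of 64 not called 11 did. Calls were lost in 14 as deposited, in 77 without a filter, in 57 with only the compared groups, and in 22 each without replicate 3 or 4. No paired analysis was possible because each replicate number occurs in 1 group. The single phl2 sample and the low depth per gene limit what the comparison can show: a gene not called may still differ.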

Other observations

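Histone genes rose in 7 of 33 tested members of 48 (median 0.36), and none fell. AT3G53650, a histone gene, was at 3.33 and 2.60 in fed wild type, 7.74 and 8.28 in starved wild type and 9.64 in phl2 (1.43 ± 0.16, adjusted p = 0.00597, limma). The count was 2 in the values as deposited, and 1 without replicate 3 or replicate 4. In the list of root meristem and cell cycle genes 0 of 3 tested members were called in limma (median 0.36, 1 at an unadjusted p under 0.05), with SHR at 0.41 ± 0.16, KNOLLE at 0.36 ± 0.23 and CDKB2;1 at -0.02 ± 0.16. The 4 meristem markers were too low to test and summed to 1.62 and 1.94 in fed wild type, 1.4 and 2.05 in starved wild type and 3.15 in phl2; their part in the histone values was not tested. Histone genes resemble one another, and the division of reads among copies is uncertain.

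The stress and hormone lists were small, and 10.3% of all tested genes were called in either direction. The jasmonate, hypoxia and heat shock lists had 6, 5 and 3 tested members. Touch-responsive genes gave 2 rises over 5 tested members: the calmodulin-like genes TCH3 (1.45 and 1.03 against 6.44 in phl2, 1.74 ± 0.18, adjusted p = 0.00512, limma) and TCH2 (0.42 and 0.31 against 2.55, 1.38 ± 0.17, adjusted p = 0.007, limma). Each faces another gene over part of its exons (20.2% and 20.9%). Glutathione transferases, which conjugate glutathione to small molecules, rose in 4 of 23 tested members, led by GSTU20 (0.71 and 1.21 against 6.41, 1.93 ± 0.18, adjusted p = 0.00336, limma). As deposited, and without replicate 3 or replicate 4, the count was 2. The jasmonate enzyme OPR3 (0.75), the sucrose synthase SUS4 (0.75) of the hypoxia list and the chaperone HSP70-4 (-0.72) were the calls of their lists, and none was called without replicate 3 or replicate 4. The ethylene list had 0 calls in limma over 8 tested members and 0 at an unadjusted p under 0.05. ACT8 (-0.57 ± 0.14, adjusted p = 0.0481, limma) was the 1 call among 7 reference genes, whose median was -0.10. It was not called without replicate 3, replicate 4 or replicate 5, nor with a pseudocount of 0.1, with no filter on low values or with only the 2 compared groups in the fit.

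Of 19 tested genes of the mitochondrial genome, 6 were called higher in phl2 (median 0.40). ATMG01160 and ATMG00420 were listed at 0 in all 4 wild-type libraries and at 4.32 and 4.82 in phl2, but their phl2 columns differed, at 6.39 and 2.16 for the first gene and 7.13 and 2.41 for the second. Of the 19 tested genes, 5 including these would fail the filter on low values without the phl2 columns, so a difference was built into the selection. With the phl2 columns counted as 1 sample in the filter, 3 were called higher. Of 31 tested plastid genes, 1 was called higher and 1 lower (median -0.28), beside 5.18% and 5.15% of all tested genes. The riser ATCG00610 reached 1 RPKM in phl2 columns alone and the faller ATCG00230 in fed libraries alone, so the filter set both directions. Of the 31, 5 would fail the filter without the phl2 columns and 12 without the fed libraries.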
